A study of Mus musculus and Rattus norvegicus with 28 samples.

Results

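The regions described here were open chromatin called only on postnatal day 1 (P1) in cardiomyocytes from the left ventricles of newborn and unborn mice. ATAC-seq peaks of 8 libraries were merged wherever they overlapped by 1 bp, which gave 113857 regions. The regions were chosen by the peak calls alone: a region was kept when both P1 libraries held a peak in it and none of the other 6 libraries, of E18.5, P3 and P7, did. This left 1706 regions, which were 15.5% of the 11007 regions held by both P1 libraries and 1.498% of all merged regions. They are called P1-only regions below, and the other 9301 regions of both P1 libraries are called shared regions. Because the peak calls chose the regions, their openness at P1 is the rule itself, and their widths, ranks and sequences are given as a description.

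All groups were wild-type C57BL/6 mice, males and females, at embryonic day 18.5 (E18.5) and postnatal days 1, 3 and 7 (P1, P3 and P7), with no treatment. Cells were released with enzymes and pre-plated so that fast-attaching cells stayed behind, and nuclei were cut with Tn5 transposase for ATAC-seq. Each time point had 2 ATAC-seq and 2 RNA-seq libraries. The study's methods call the libraries of a time point biological replications, but the number of animals behind each library was not given in the sources used here. The p-values measure only the spread between these libraries.

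In ATAC-seq a transposase inserts sequencing adapters where DNA is not wrapped in nucleosomes, so that active promoters and enhancers appear as peaks of reads. Cardiomyocytes change quickly around birth, when they switch fuel, build mature contractile structures and leave the cell cycle, and a short opening of promoters or enhancers at P1 would be one way to see such a change. Peak calling also depends on where reads can be placed. Tandem repeats, in which a short unit is copied head to tail, and microsatellites such as runs of CA, give many near-identical places for a read.

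The sequences of 4 P1-only regions that lay in repeats show the kinds of repeat they held (mm10, plus strand, up to 150 bases around the midpoint). The first held one of the best ranks of all P1-only regions, 5681 bp upstream of the nearest transcript start of the kinase gene Cdk17 (chr10:93233267-93233416). The second lay in the gene Tm2d2, near the start of the metalloprotease gene Adam9 (chr8:25019150-25019299). The third lay 2287 bp upstream of the adaptor gene Dok5 (chr2:170729445-170729594), and the fourth 2197 bp upstream of Ryr2, the calcium release channel of the sarcoplasmic reticulum (chr13:12109067-12109216). Capitals mark 1 copy of the repeated unit in the first and the second, of 12 and 33 bp, and the longest unbroken run of CA or GT in the third and the fourth, of 42 and 46 bp.
Cdk17 upstream region: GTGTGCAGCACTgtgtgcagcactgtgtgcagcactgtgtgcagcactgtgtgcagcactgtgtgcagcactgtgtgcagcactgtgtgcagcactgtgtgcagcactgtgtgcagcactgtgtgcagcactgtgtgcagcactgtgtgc
Tm2d2 and Adam9 region: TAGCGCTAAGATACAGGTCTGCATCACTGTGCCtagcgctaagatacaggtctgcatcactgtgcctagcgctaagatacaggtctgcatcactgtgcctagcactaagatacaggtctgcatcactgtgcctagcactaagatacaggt
Dok5 upstream region: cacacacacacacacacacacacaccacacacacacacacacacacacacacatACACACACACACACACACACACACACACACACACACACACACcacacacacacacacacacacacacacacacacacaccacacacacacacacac
Ryr2 upstream region: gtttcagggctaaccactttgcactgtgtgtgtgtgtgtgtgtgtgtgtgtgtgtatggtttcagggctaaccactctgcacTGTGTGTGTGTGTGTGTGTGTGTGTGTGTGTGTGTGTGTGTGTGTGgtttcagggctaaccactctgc

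In contrast, 3 P1-only regions at the starts of muscle genes held neither kind of repeat. They are shown because they lay within 122 bp of the start of an expressed muscle gene: Trim72, a membrane repair protein of striated muscle (chr7:128003770-128003948), Fsd2, a muscle protein of the fibronectin and SPRY domain family (chr7:81566991-81567140), and Mylk3, the cardiac myosin light chain kinase (chr8:85386373-85386522). Capitals mark the match to the binding pattern of MEF2, a muscle transcription factor, in the Trim72 sequence. The Fsd2 and Mylk3 sequences have no capitals. The Mylk3 sequence and the repeat examples were chosen after their values were seen.
Trim72 promoter region: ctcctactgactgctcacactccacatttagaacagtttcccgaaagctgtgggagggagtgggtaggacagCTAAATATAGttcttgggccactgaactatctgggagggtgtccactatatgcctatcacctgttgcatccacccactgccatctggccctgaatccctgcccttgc
Fsd2 promoter region: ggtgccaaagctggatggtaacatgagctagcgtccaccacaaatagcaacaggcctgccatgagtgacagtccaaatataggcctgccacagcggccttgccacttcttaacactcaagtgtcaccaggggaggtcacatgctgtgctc
Mylk3 promoter region: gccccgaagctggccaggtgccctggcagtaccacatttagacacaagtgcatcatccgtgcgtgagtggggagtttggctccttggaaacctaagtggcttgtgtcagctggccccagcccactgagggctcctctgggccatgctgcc

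Most P1-only regions were tandem repeats. A window of 200 bp around the midpoint was counted as a tandem repeat when at least 60% of its bases were equal to the base 1 unit away, for any unit of 2 to 100 bp. Of the 1691 P1-only regions on assembled chromosomes, 1348 (79.7%, 95% Wilson interval 77.7 to 81.6) met this. The same share was 14.5% in shared regions, 0.493% in 8324 regions held by both P3 libraries alone, and 1.49% in 13233 windows laid every 200 kb along the genome. Over all merged regions it was 7.63%, and in the regions held by all 8 libraries 3.07%.

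Repeat annotation gave the same picture. Over 50% of the window was soft-masked by the reference genome's repeat annotation in 71.4% of P1-only regions, against 12.04% of shared regions, 4.19% of P3-only regions and 30.3% of the genome windows. An unbroken run of CA or GT of at least 24 bp was present in 366 regions (21.6%), against 2.28% of shared regions and 1.69% of genome windows. The assigned units ranged from 2 bp to long ones: 278 of the 1348 tandem regions (20.6%) were assigned a unit of 2 bp, 73 of 6 bp, 56 of 12 bp, 288 (21.4%) of 21 to 40 bp and 409 (30.3%) of 41 to 100 bp. A longer unit was assigned only when it matched better than the shorter ones by a set margin. A long assigned unit can be a multiple of a shorter, less perfect one, so these classes do not show the true unit. In the class of 21 to 40 bp the median masked share was only 20.3%, so many windows of this class were mostly outside the repeat annotation.

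By class, 1012 P1-only regions (59.3%) were tandem and masked, 336 (19.7%) tandem but not masked, 195 (11.4%) masked but not tandem, and 148 (8.68%) neither. The last 15 lay on unplaced or unlocalized scaffolds and were not searched. The GC content of the windows was 50.5% ± 7.17 (SD over 1691 regions), against 60.0% ± 9.72 in shared regions and 48.8% ± 6.96 in P3-only regions. CpG dinucleotides were 2.34 per window in P1-only regions and 11.1 in shared regions.

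**Figure D1:**
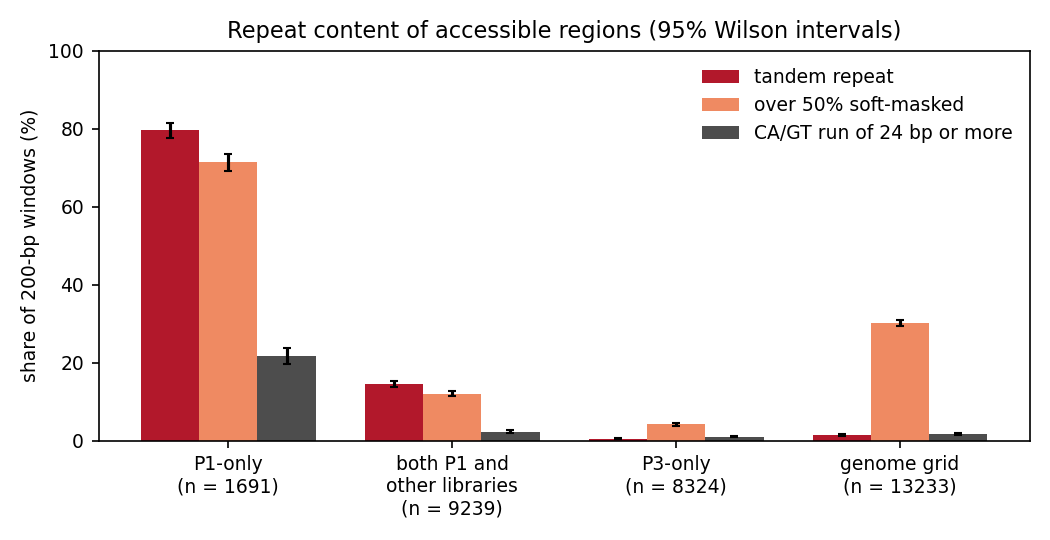
Share of 200-bp windows in percent (vertical axis) that were tandem repeats, over 50% soft-masked, or held a CA or GT run of at least 24 bp, for P1-only, shared and P3-only regions and windows along the genome, with 95% Wilson intervals as error bars. P1-only regions stand at 79.7% for tandem repeats, against 14.5% in shared regions and 0.493% in P3-only regions.

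The same sequences were common in each P1 list as a whole. Of all peaks on assembled chromosomes, 14.8% of the first and 34.3% of the second P1 library lay in tandem repeats. In the other 6 libraries the share was 1.95% and 5.05% at E18.5, 1.75% and 1.11% at P3, and 2.55% and 3.63% at P7, so both P1 libraries lay above every other library. Since the rule uses both P1 lists, the comparison was made again on peaks outside the P1-only regions, where the P1 libraries stood at 10.7% and 30.1%. The mean of 20.4% at P1 exceeded the mean of the other libraries, 2.67%, by 17.7 percentage points. This comparison was chosen after the shares were seen and comes from the lists the rule used, so it is given without a test. The P1 libraries also differed from each other by more than the pairs of any other time point, and the second held 6999 regions that no other library held, 50.1% of them tandem. The names of the peaks in both P1 lists and in the second E18.5 list begin with ZJ1216, and that E18.5 library had the highest tandem share outside P1. What ZJ1216 stands for is not given in the labels. Both P1 lists carry it, so within P1 it cannot be told apart from the time point. Whether library preparation took part in the tandem shares was not tested. Without the first P1 library the rule gave 8744 regions, 55.9% of them tandem, and without the second 5292, 48.7% of them tandem. Peak lists carry no read depth, so it is unknown here.

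**Figure D2:**
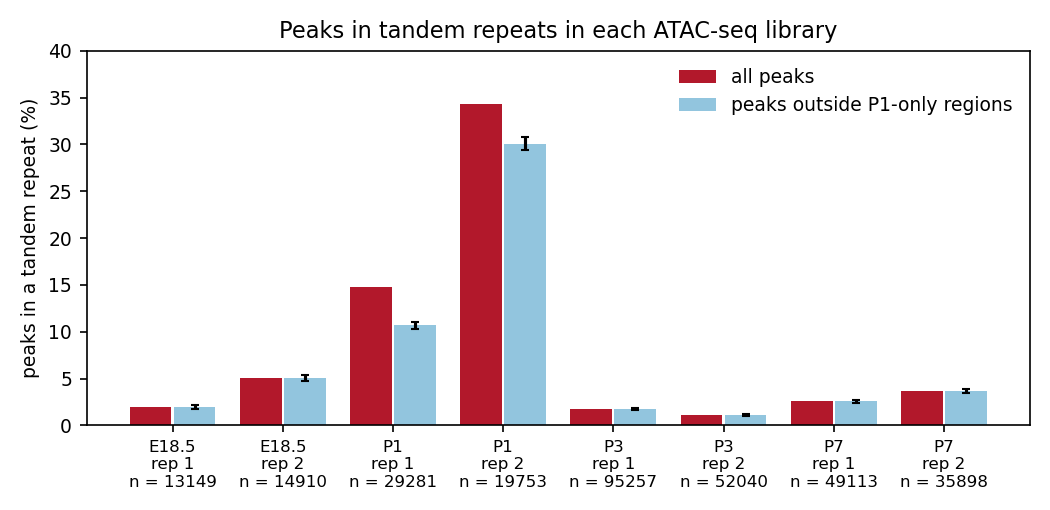
Share of peaks in tandem repeats in each ATAC-seq library, in percent of its peaks on assembled chromosomes, for all peaks (dark bars) and for peaks outside P1-only regions (light bars, with 95% Wilson intervals that cover counting error only), with the length of the whole list under each name. The first and second P1 libraries reach 14.8% and 34.3% of all peaks, and no other library exceeds 5.05%.

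Seen from the other side, tandem regions of both P1 libraries were far less often held by other libraries than the rest. Of 2689 tandem regions held by both P1 libraries, 1348 (50.1%) were held by none of the 6 other libraries. Of 8241 regions without a tandem repeat, 343 (4.16%) were. The first P3 library, whose list was the longest with 95257 peaks, held 33.0% of the tandem and 92.8% of the other regions. The lists differed in length, from 13149 and 14910 peaks at E18.5 through 29281 and 19753 at P1 to 95257 and 52040 for the P3 libraries and 49113 and 35898 for those of P7. The E18.5 lists were the shortest.

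P1-only regions were narrower than shared regions, which are merged from peaks of up to 8 libraries. Their width ran from 124 to 2982 bp with a median of 266 bp (quartiles 205 and 356), against a median of 767 bp for shared regions. The P1 peaks themselves had median widths of 166 bp in P1-only and 270 bp in shared regions in the first list, but 217 and 215 bp in the second, where P1-only peaks were no narrower. In the first P1 list they were weak: the median rank by q-value was 20228 of 29281, 69.1% down the list, and 1256 regions (73.6%) fell in its lower 50%. Only 98 (5.74%) were in the top 25%, where 58.7% of shared regions stood. The median fold enrichment over background, as the peak caller gave it, was 5.09 (2.05 to 14.8), against 7.26 for shared regions. In the second P1 list they stood higher, at a median rank of 7846 of 19753 (39.7%), with 457 (26.8%) in the top 25% against 41.9% of shared regions. There the median fold enrichment was 4.79 against 5.06 for shared regions, a smaller gap than in the first list.

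The share of tandem peaks itself changed along the first list, from 8.89% in its best 10% to 21.5% in its last 10%, and P1-only regions made up 0.517% of the former and 10.2% of the latter. In the second list tandem peaks were common from the start, with 34.0% in the best 10%. Regions just outside the rule looked alike: 694 regions had a peak in both P1 libraries and exactly 1 of the other 6, and 69.9% of those on assembled chromosomes were tandem repeats. The extra library was most often the second P7 library (229 regions), the first P3 library (214) or the second E18.5 library (129), and in 7 and 2 regions it was the first E18.5 and the second P3 library. The median width just outside was 368 bp, and the median fold enrichments were 5.40 and 5.01.

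**Figure D3:**
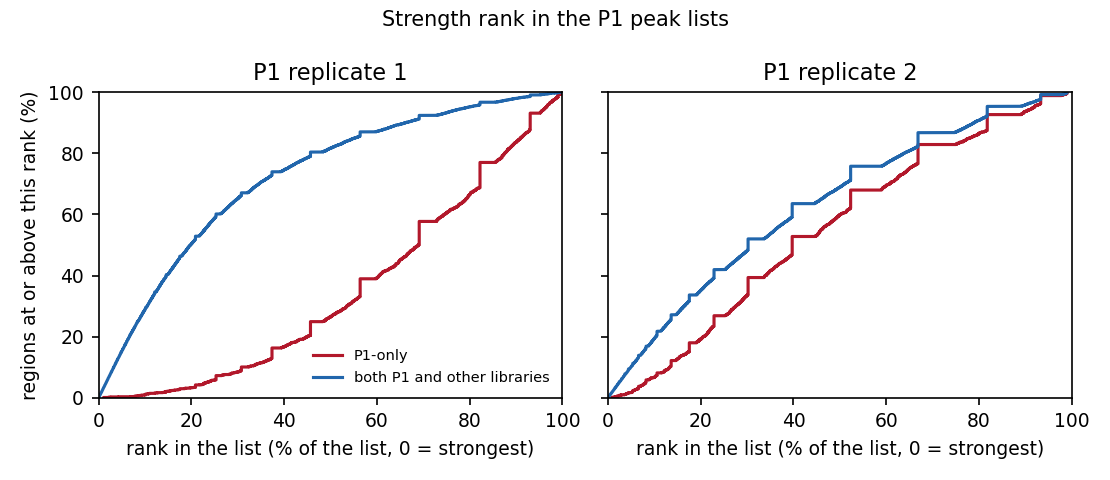
Rank of P1-only and shared regions in each P1 list, with the position in the list in percent from the strongest peak on the horizontal axis and the cumulative share of regions in percent on the vertical axis. Steps are tied peaks. The median P1-only region stands 69.1% down the first list and 39.7% down the second.

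Peaks of other time points were often close. For 63 P1-only regions (3.69%) the nearest peak of the other 6 libraries lay within 200 bp, for 265 (15.5%) within 1 kb and for 1129 (66.2%) within 10 kb, with a median of 5.53 kb. P1-only regions were spread over all chromosomes, at 0.497 per Mb on chromosome 10 to 0.960 per Mb on chromosome 19 among the autosomes. On the X chromosome 25 were found (0.146 per Mb), and 9 on the Y chromosome.

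Few P1-only regions lay at promoters. A midpoint was within 2.5 kb of an annotated transcript start in 233 regions (13.8%, 95% interval 12.2 to 15.5), which was close to the 13.8% of genome windows and below the 60.8% of shared and 20.7% of P3-only regions. The transcript starts came from the deposited annotation, which holds many non-coding transcripts. The distance was 2.5 to 20 kb for 919 regions (54.3%), 20 to 50 kb for 336 (19.9%) and over 50 kb for 203. The median distance was 11.1 kb, against 0.327 kb for shared regions, 10.7 kb for P3-only regions and 16.5 kb for genome windows. Introns held 888 midpoints (52.5%) and intergenic sequence 766 (45.3%), while coding exons held 12, UTRs 5 and non-coding exons 20. In shared regions UTRs took 20.7% and coding exons 6.47%. Among the 148 P1-only regions outside both kinds of repeat, 36 (24.3%) were within 2.5 kb of a start, against 12.3% of the tandem and masked ones, and 9 lay in coding exons. With the limit at 1 kb the share of all P1-only regions at promoters was 5.97%, and with RefSeq protein-coding starts it was 5.20%.

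**Figure D4:**
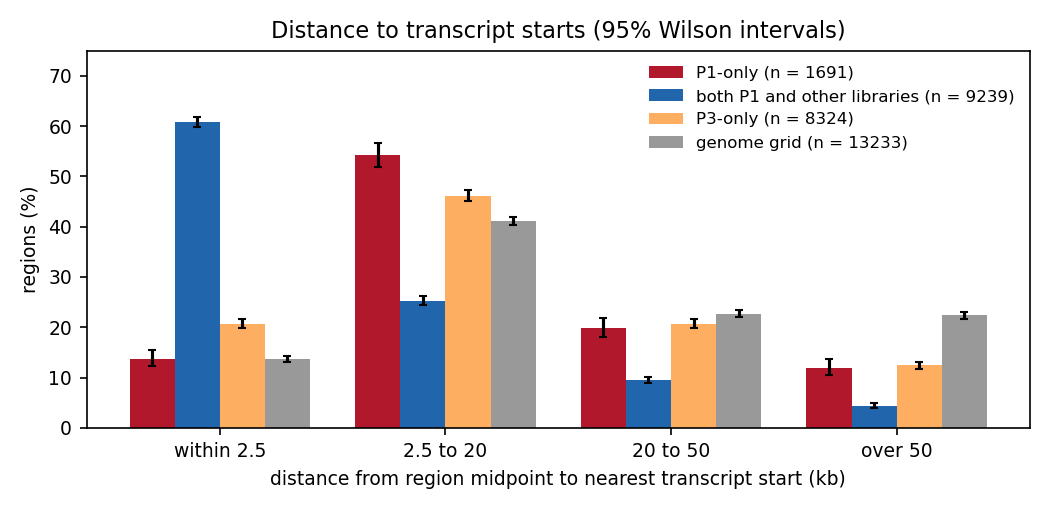
Distance from the midpoint of each region to the nearest annotated transcript start, as the share of regions in percent in 4 distance classes, for P1-only, shared and P3-only regions and for genome windows, with 95% Wilson intervals. Within 2.5 kb stood 13.8% of P1-only and 60.8% of shared regions.

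Binding patterns of cardiac and general transcription factors were scarce in P1-only regions. The patterns were searched on both strands of the 200-bp window. TGANTCA, the site of the AP1 family, was in 0.710% of P1-only regions, 8.65% of shared regions, 22.8% of P3-only regions and 5.69% of genome windows. The GC box GGGCGG was in 1.301% against 34.1% of shared regions and 1.94% of genome windows. The ETS core CCGGAA was in 0.473% against 11.8% and 1.65%. GGAATG, the TEAD site, was in 1.72% against 10.6% of shared regions, 20.7% of P3-only regions and 10.5% of genome windows. The GATA pattern AGATAA was in 1.01% against 4.07%, 10.7% and 13.8%. The MEF2 pattern matched in 9 P1-only regions (0.532%), of which the Trim72 promoter was one, against 4.88% of genome windows, which had a lower GC content (41.7%). In the 343 P1-only regions without a tandem repeat the shares were 2.33% for MEF2, 2.33% for AP1, 6.71% for TEAD and 4.08% for GATA, so MEF2 was near the 2.42% of P3-only regions there, while AP1, TEAD and GATA stayed lower. A match says only that these letters are present.

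RNA-seq values of the nearest genes played no part in choosing the regions. The depth of the 8 RNA-seq libraries, derived from coverage and FPKM (fragments per kilobase of transcript, scaled to the mapped fragments of the library), was 4.40 to 5.63 Gb of aligned bases. All 16 cardiomyocyte markers were detected, with summed FPKM of 32339 and 41958 in the E18.5 libraries, then 15955 and 25322 in those of P1, 10569 and 8702 in those of P3, and 2757 and 1241 in those of P7. Summed FPKM of 12 fibroblast markers was 623 and 626, 1459 and 1634.8, 1914 and 2002, and 3442 and 4244 at the same times. Summed FPKM of the erythroid list was 29056 and 35400 at E18.5 and 8.19 and 41.05 at P1. The part of these shifts in the results on genes below was not tested, and in bulk samples fewer cells of a type cannot be told apart from less RNA per cell.

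The nearest genes of P1-only regions were 1594, of which 563 (35.3%) passed the expression filter, against 25.2% of all annotated genes. The share was 67.9% for the nearest genes of shared regions and 37.7% for those of P3-only regions. A gene was called when limma on log2(FPKM + 1) gave an adjusted p under 0.05 together with a change of over 1 on the log2 scale. Between E18.5 and P1, 73 of 563 nearest genes (12.97%) were called higher, beside 10.1% of all genes tested, and 26 (4.62%) were called lower, beside 6.06%. Between P1 and P7, 28 (4.97%) were called higher, beside 3.45%, and 51 (9.06%) lower, beside 5.46%. Without the second P7 library the last share was 5.86%, beside 3.79% of all genes. Of these 4 shares, the one lower at P1 stood below the background and the other 3 stood above it. The differences from the background were not tested. The median log2 fold change from E18.5 to P1 was 0.22 for nearest genes and 0.15 for all genes. For the 5351 tested nearest genes of shared regions the shares were 9.12% higher and 4.77% lower at P1, and 1.78% higher and 6.24% lower at P7. For the 2516 tested nearest genes of P3-only regions they were 15.4% higher and 5.64% lower at P1, and 5.05% higher and 7.07% lower at P7. The P3-only shares thus stood on the same sides of the background as the P1-only shares. Size factors by the median of ratios moved the median of all genes to -0.01 and left 47 nearest genes higher and 34 lower, so that 58.0% of the called nearest genes were higher in place of 73.7% (45.7% in place of 62.5% over all genes).

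Between P1 and P3 limma called none of the 563 nearest genes in either direction, beside 0.0143% of all genes called higher and 0% lower. At an unadjusted p under 0.05, 42 were higher and 47 lower (7.46% and 8.35%, beside 5.80% and 5.48% of all genes), and limma-voom called none. The median FPKM of the nearest genes was 6.19 and 5.43 in the E18.5 libraries, 7.36 and 7.87 in those of P1, 6.98 and 7.41 in those of P3, and 6.99 and 7.14 in those of P7. The E18.5 libraries were the lowest, and the ranges of P1 and P3 overlapped. Over all genes tested the medians were 7.48 and 6.92, 8.30 and 8.54, 8.25 and 8.61, and 8.10 and 7.99, again lowest at E18.5.

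The 148 P1-only regions outside both kinds of repeat, a class defined after the sequences were seen, had 145 nearest genes. Of these 61 were tested, and 12 (19.7%) fell from P1 to P7, beside 5.46% of all genes. None was called higher by limma, beside 3.45% of all genes, and none by limma-voom, beside 4.54%. At an unadjusted p under 0.05 in limma, 3 (4.92%) were higher and 22 (36.1%) lower, beside 14.9% and 16.1% of all genes. The 12 were Actn2, Asb8, Enah, Fsd2, Mylk3, Nppb, Nt5c2, Pde1c, Pdlim5, Pirt, Plagl1 and Trim72, chosen here as all that were called. Actn2 and Pdlim5 were the 2 of the sarcomere list, and the Actn2 region lay 22499 bp from its start. The list of cardiomyocyte markers moved the same way, and all 16 of them were called lower at P7 than at P1. What part a falling cardiomyocyte share had was not tested. Of the 464 tested genes nearest to tandem regions, 35 (7.54%) fell and 25 (5.39%) rose.

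Among genes with a start within 2.5 kb of a P1-only midpoint, 106 of 261 were tested. From E18.5 to P1, 12 (11.3%) rose and 8 (7.55%) fell, beside 10.1% and 6.06% of all genes. The falls included Gm28438, Gm28661, Gm28437, Gm10925 and Gm29216. These lay at the same region, the mitochondrial copy described below, so they were not independent counts. From P1 to P7, 3 (2.83%) rose and 15 (14.2%) fell, beside 3.45% and 5.46%, so that the falls to P7 stood farthest from the background. These falls were not all independent either: they counted Gm29216 at the mitochondrial copy, and both Trim72 and Gm15533, which shared a region. Trim72 was called in both steps. Its FPKM was 18.8 and 9.82 in the E18.5 libraries, 66.0 and 104 in the P1 libraries, 53.0 and 45.4 in the P3 libraries, and 13.6 and 5.17 in the P7 libraries. Both P1 libraries stood above every other library. It rose 5.74-fold from E18.5 to P1 on the log2(FPKM + 1) scale (log2 fold change 2.52, SE 0.43, limma adjusted p = 0.00279) and fell by 3.14 on the log2 scale to P7 (adjusted p = 0.00231), and both calls were kept under every alternative run. The drop from P1 to P3 was not called (log2 fold change -0.75, adjusted p = 0.583). The P1-only region shown above lay at chr7:128003770-128003977, 75 bp upstream of the Trim72 start and in an exon of the non-coding gene Gm15533. It ranked 6647 of 29281 in the first P1 list and 17743 of 19753 in the second, with fold enrichments of 6.69 and 3.61, so it was near the end of the second list. The nearest peak of any other library was 3922 bp away. Gm15533 was called higher at P1 and lower at P7 too (log2 fold change 1.56 and -2.01). The Trim72 and Gm15533 loci overlap, and how far their reads were told apart is uncertain.

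Mylk3 and Fsd2 had P1-only regions 88 and 122 bp upstream of their starts. The Mylk3 FPKM, in the same order of time points, was 56.3 and 77.7, 62.1 and 105, 39.6 and 36.2, and 9.80 and 3.404. The E18.5 and P1 libraries overlapped, and the fall of 3.57 on the log2 scale from P1 to P7 was called (adjusted p = 0.00121). The Fsd2 FPKM was 19.96 and 29.3, 12.8 and 20.5, 8.47 and 7.91, and 1.77 and 0.963 at the same times, with E18.5 and P1 again overlapping and a called fall of 2.89 on the log2 scale to P7 (adjusted p = 0.000864). The levels of both genes were highest at E18.5 or P1 and lowest at P7, while their promoter peaks were called at P1 alone. Their regions, chr8:85386316-85386550 and chr7:81566944-81567187, ranked 15947 and 3095 in the first P1 list and 13205 and 7681 in the second. Pdlim5, a Z-disc scaffold, had its region in an intron 1332 bp downstream of the start, with FPKM of 103.1 and 121, 161 and 190, 124 and 106, and 61.0 and 51.9. Both P1 libraries were the highest, with a log2 fold change of 0.64 over E18.5 that stayed under the size limit (adjusted p = 0.0123), and the gene fell by 1.62 on the log2 scale to P7 (adjusted p = 0.000864).

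**Figure D5:**
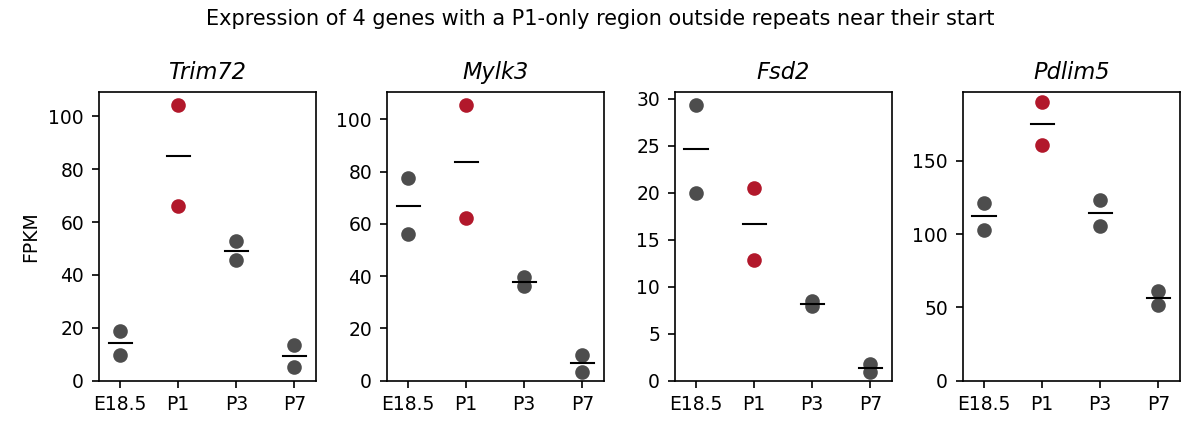
FPKM of Trim72, Mylk3, Fsd2 and Pdlim5 in each of the 8 RNA-seq libraries by time point, on linear axes from 0 that differ in range between genes, with points for libraries (P1 in red) and lines at the mean of the 2 libraries. Trim72 goes from 18.8 and 9.82 at E18.5 to 66.0 and 104 at P1 and 13.6 and 5.17 at P7, and the other 3 genes are lowest at P7.

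The regions near the starts of the other genes named here were repeats, apart from those of Lrp8 and of the mitochondrial copy described below. Sh3bgr, a muscle gene of the SH3-binding glutamate-rich family, had a tandem region 975 bp downstream of its start and went from FPKM of 175 and 234 at P1 to 30.4 and 17.0 at P7 (log2 fold change -3.10, adjusted p = 0.00082). Ryr2, with the GT repeat shown above, went from 13.1 and 22.3 to 1.91 and 0.822 (log2 fold change -2.97, adjusted p = 0.00103). The largest rise from E18.5 to P1 among genes with a start within 2.5 kb was that of Ptprn, a protein of secretory vesicles, from 0.807 and 0.376 to 16.9 and 17.5 (log2 fold change 3.53, adjusted p = 5.02e-05), and its level stayed up at 29.6 and 33.0 at P7. Its region was a masked tandem repeat in an intron. Adam9 rose from 19.7 and 18.4 to 70.2 and 63.1 (log2 fold change 1.75), and the integrin Itga3 from 12.8 and 9.76 to 35.5 and 34.8 (1.57). The 8 largest of the 12 rises also included Pear1 (1.37), the cyclin gene Ccnf (1.29) and the lipoprotein receptor gene Lrp8 (1.23), whose call was lost without the second E18.5 library (0.75) or the first P1 library (1.198).

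Falls from E18.5 to P1 near P1-only promoters were led by Fam107b, from 17.0 and 18.5 FPKM to 3.46 and 2.46 (log2 fold change -2.25, adjusted p = 0.00603). Its region was a perfect repeat of a 31-bp unit. It rose again to 22.1 and 6.05 at P7 (log2 fold change 1.70, adjusted p = 0.037), with a wide gap between the P7 libraries, and that call was lost on leaving out any library but the second of P7 (adjusted p between 0.0572 and 0.175). Sez6l2 and 5430431A17Rik had log2 fold changes of -1.28 and -1.177. The first call was lost without the first E18.5 library (-0.97), and the second without either E18.5 library, the first P1 library or either P7 library (-1.41 to -0.71). The other 5 genes in this group, Gm28438, Gm28661, Gm28437, Gm10925 and Gm29216, shared 1 region, the widest of all at 2982 bp (chr1:24613165-24616146). Every 25-mer of it was also present in the mitochondrial genome, so reads could come from either copy. Its fold enrichments were 2.53 and 2.61, at ranks 685 and 175. The FPKM of Gm10925 was 16646 and 15761 at E18.5 and 6152 and 6592 at P1, and these levels are uncertain for the same reason. The call of Gm29216 was lost without either E18.5 library or the first P1 library (-1.07 to -0.66). From P1 to P7 the 3 rises were Fam107b, Dok5 (2.12 and 1.10 to 4.25 and 5.31 FPKM, log2 fold change 1.17, adjusted p = 0.0307) and the phosphodiesterase gene Pde9a (0.210 and 0.391 to 1.51 and 2.29, log2 fold change 1.15, adjusted p = 0.00676), all with tandem repeats. The Dok5 call was lost without the second P1 library (0.88) or either P7 library (1.302 and 1.04), and the Pde9a call without the second P7 library (0.95). The Dok5 call was also lost with no filter, a pseudocount of 0.1, TPM or limma-voom (1.17 to 1.64).

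The 10 P1-only regions with the best mean rank in the 2 P1 lists were nearest to Mid1-ps1, Gm10925, Cdk17, Gm10719, Gm45890, Gm49170, Abhd6, Bach2, Igkv1-122 and Gm47803. All but the Gm10925 region were tandem or masked. The Cdk17 region had the highest fold enrichment of all P1-only regions in the first list, 14.8, and 9.04 in the second, and every base of its window was equal to the base 12 bp away. The Cdk17 FPKM in the P1 libraries, 12.7 and 12.5, lay between the values of the E18.5 libraries, 17.2 and 11.8. Both P1 libraries stood below the P3 libraries (14.2 and 15.4) and the P7 libraries (14.6 and 17.2). Neither step was called (log2 fold change from P1 of 0.21 to P3 and 0.31 to P7). Abhd6, a lipase gene, was the one of these genes other than Gm10925 that was called, going from 2.31 and 2.08 to 6.45 and 5.70 (log2 fold change 1.15, adjusted p = 0.000813). Its call was lost with median-of-ratios scaling (log2 fold change 0.99). Of the 10 genes, 6 did not pass the expression filter.

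Some genes had several P1-only regions: Epg5, an autophagy gene, had 4, and Dym, Gm47283 and the mechanosensitive channel gene Piezo2 had 3 each. Piezo2 rose from 1.43 and 1.32 FPKM at P1 to 5.42 and 5.99 at P7 (log2 fold change 1.497, adjusted p = 0.00117), after 0.887 and 0.535 at E18.5. Epg5, Dym and Gm47283 passed no call between E18.5 and P1, with log2 fold changes of 0.59, 0.33 and -0.32. The Epg5 change stayed under the size limit (limma adjusted p = 0.0208). With limma-voom Epg5 (1.12) and Piezo2 (1.38) were called higher at P1. The long non-coding 2610035D17Rik, the first by name of the genes with 2 regions, had 0.53 (adjusted p = 0.146).

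Each gene list of heart biology held 0 to 4 genes with a P1-only region nearest to them, beside 563 of 13979 tested genes in all. Among tested genes these were 4 of 16 metabolic regulators, 4 of 25 of calcium handling and ion channels and 3 of 14 of the intercalated disc. They were 2 of 32 sarcomere genes, 2 of 31 cell cycle genes and 0 of 18 of the AP1 family. These shares were not tested against the background. Nearest set no limit on distance, and the regions of the listed genes lay up to 107124 bp from the start. Only those of Actn2, Pdlim5, Trim72 and Acaa2 were neither tandem nor masked. Medians below are of the log2 fold change from E18.5 to P1 and then from P1 to P7, beside 0.15 and -0.004 over all genes. Of 32 sarcomere genes (medians -0.84 and -3.17), 9 fell to P1 and 30 fell to P7. Among these, Actn2, the Z-disc alpha-actinin, and Pdlim5 were nearest to a P1-only region, and Actn2 went from 266 and 451 FPKM in the P1 libraries to 38.6 and 14.6 in those of P7. Of 25 tested genes of calcium handling and ion channels (medians 0.01 and -2.35), 4 rose and 2 fell to P1 and 19 fell to P7. The sodium-calcium exchanger gene Slc8a1 fell to P7 (-3.09), and the potassium channel gene Kcnj2 was called in neither step (0.01 and -0.36). Their regions were masked tandem repeats 77590 and 8444 bp from the starts. In the membrane repair and caveolae list of 16 genes (medians 0.57 and 0.36), 5 rose and 1 fell to P1 and 3 fell to P7, and Trim72 was its single gene with a P1-only region.

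In the intercalated disc list (14 tested, medians 0.004 and -1.31, 2 lower at P1 and 10 lower at P7) Gja5 (-1.61) and Ctnna1 (-1.16) fell to P7, and Vcl was called in neither step (0.39 and -0.17). Without the second P1 library the values were -1.12 for Gja5 and -0.96 for Ctnna1, and neither was called. The Gja5 call was also lost without either P7 library. At P1 Gja5 had 1.05 (adjusted p = 0.0597), and it was called higher with TPM or without the first library of E18.5 or of P1 (1.34 to 1.55). Of 21 tested cardiac transcription factors (medians -0.16 and -0.89), 2 rose and 2 fell to P1 and 8 fell to P7. Tbx5, a T-box factor, and the homeobox factor Prox1 were nearest to P1-only regions and fell to P7 (-2.13 and -1.77). Both regions were tandem repeats, 18674 and 107124 bp from the starts. Among the metabolic regulators (16 tested, medians -0.32 and -0.31, 1 lower at P1 and 6 lower at P7) the estrogen-related receptor gene Esrrg fell to P7 (-1.80), while Esrrb (-0.11 and -0.85) and Ppard (0.84 and 0.55) were called in neither step. Esrrb was called lower at P7 with a pseudocount of 0.1, TPM or limma-voom (-3.03 to -1.30), and Ppard higher at P1 with TPM, limma-voom or without the first E18.5 library (1.13 to 1.19). Lpin1 was called lower at P7 (-1.07), but the call was lost with the replicate block (adjusted p = 0.0551) and without the second P1 library (-0.64) or either library of P3 or P7. In fatty acid oxidation (30 tested, medians -1.21 and -0.79, 19 lower at P1, 1 higher and 10 lower at P7) the thiolase gene Acaa2 fell from 294 and 340 FPKM at E18.5 to 117 and 120 at P1 (log2 fold change -1.41, adjusted p = 0.000462). Cpt1a, the gate of fatty acids into mitochondria, had 0.21 at P1 and was just under the size limit at P7 (0.98, adjusted p = 0.022). It was called higher at P7 with a pseudocount of 0.1, TPM or limma-voom and without the first P1 library (1.02 to 1.21). The Acaa2 region lay outside repeats but 17463 bp from the start.

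In the glycolysis list (26 tested, medians -0.51 and -0.08, 1 higher and 6 lower at P1, 2 higher and 7 lower at P7) Pfkfb3, a regulator of glycolytic flux, was called higher at P7 (1.00), a call lost without either P1 library or the second P7 library (0.79 to 1.10), and the hexokinase gene Hk2 was called in neither step (0.38 and -0.41). In the insulin and growth factor list (27 tested, medians 0.39 and -0.02, 6 higher and 5 lower at P1, 2 higher and 2 lower at P7) the receptor gene Fgfr1 rose from 14.2 and 11.5 FPKM at E18.5 to 34.0 and 32.4 at P1 (log2 fold change 1.31, adjusted p = 0.000657), and the insulin receptor gene Insr had -0.13. At P7 Insr was just under the size limit (-0.96, adjusted p = 0.0206) and was called lower with a pseudocount of 0.1, TPM or without the first P1 library (-1.26 to -1.04). In the cell cycle list (31 tested, medians 0.31 and 0.12, 6 higher and 2 lower at P1) Cdkn1a, a brake on the cycle, fell from 305 and 236 to 132 and 109 (log2 fold change -1.15, adjusted p = 0.00204). Its call was lost with TPM (-0.92) or without the first E18.5 library (-0.97). Cdk6, with 2 P1-only regions, had 0.88 (adjusted p = 0.02) and was called without that library (1.22) and with a pseudocount of 0.1, TPM or limma-voom (1.02 to 1.17). In the extracellular matrix list (30 tested, medians 1.61 and 1.14, 19 higher and 2 lower at P1, 15 higher at P7) the elastin gene Eln fell from 97.0 and 158 to 10.3 and 7.80 and rose to 92.4 and 133 at P7, so that both P1 libraries were the lowest. The Eln region was a tandem repeat 60380 bp from the start.

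The 18 genes of the AP1 family and the 11 class I and II histone deacetylases had no P1-only region nearest to them. The first list (medians -0.86 and 0.26) had 1 gene higher and 7 lower at P1 and 1 higher at P7, and the second (medians 0.32 and -0.06) 2 lower at P1 and 1 lower at P7. Among markers of other cells, the fibroblast gene Dcn rose from E18.5 to P1 (log2 fold change 2.23, in a list with 8 of 12 higher), and the endothelial gene Vwf fell (-1.32, in a list with 1 higher and 2 lower of 12). Myh11 of smooth muscle rose from P1 to P7 (1.80, in a list with 4 higher and 2 lower of 10), while Adgrf5 and Kcnj8 were not called. Markers of macrophages, erythroid cells and epicardium had no P1-only region nearest to them.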

How the data were processed

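Mouse cardiomyocytes were profiled by ATAC-seq and RNA-seq (2 libraries of each kind for every time point from E18.5 to P7). Per the labels and the study's methods, the authors trimmed reads with cutadapt, aligned ATAC-seq reads with Bowtie2 to mm10, removed duplicates with Picard and called peaks with MACS2 per library. The methods also give a removal of peaks in the ENCODE blacklist. No such filter was applied here, and whether the deposited lists had passed it was not checked. The regions described here therefore need not all be in the study's own set. The deposited peak lists give a score, a fold enrichment, and −log10 p-values and −log10 q-values. RNA-seq was aligned with HISAT2 2.1.0 and assembled with StringTie 1.3.5, per the labels. The deposited GTF files give coverage, FPKM and TPM for each transcript, which were summed by gene here. Replicates were not pooled. The 6 HiChIP and 6 rat libraries were not analysed here, and 0 columns of unmapped samples were present.

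Peaks were merged at 1 bp of overlap. Ranks are by q-value, with ties at the best rank. Distances run from region midpoints to the transcript starts of the GTF files, non-coding ones included, with the study's promoter limit of 2.5 kb, which the study set around protein-coding RefSeq starts. Windows of 200 bp were read from GRCm38.p6. The definitions of tandem repeats, masked regions and CA runs were made after the sequences were seen. Expression was tested with limma 3.58.1 (trend) on log2(FPKM + 1) in 1 fit over 8 libraries, keeping genes whose FPKM reached 1 in 2 or more libraries (13979 of 55450), since the files hold FPKM and no read counts. Library numbers were not used as a block: deviations of same-numbered libraries correlated between -0.0964 and 0.171, so the numbers do not pair the samples. limma-voom, as an alternative, used reads estimated from coverage and transcript length. R 4.3.3, Python 3.11.15, numpy 2.4.6, pandas 2.3.3, scipy 1.17.1 and pysam 0.24.0 were used, and the limma step was tested on simulated data. Wilson intervals are at 95% and cover counting error only.

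Named genes were those with a start within 2.5 kb of a P1-only midpoint that were called without overlap of the libraries (the 8 largest rises and falls from E18.5 to P1, the 5 largest from P1 to P7), the nearest genes of the 10 best-ranked regions, the 5 tested genes with the most regions, Trim72, and members of the gene lists that were nearest to a region, of which 1 is not reported here. The regions, lists and tests were chosen with earlier results of these data known. Alternatives covered peak-list length, peak score, overlap, promoter limit, gene annotation, pseudocount, filter, TPM, scaling, limma-voom and leaving out each library.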

Additional observations from a re-analysis of the deposited data

How the results depend on the processing

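The number of P1-only regions rested on both P1 lists. It was 710 with lists cut to an equal number of peaks and 715 with the upper 50% of each list, and leaving out 1 library gave 1711 to 8744, with 8744 without the first and 5292 without the second P1 library. Definitions chosen after seeing the data left 343 regions without a tandem repeat and 148 in neither repeat class. The tandem share, 79.7%, was 73.7% with equal lists, 82.0% with the upper 50%, 85.6% and 68.4% with the self-match limit at 0.5 and 0.7, and 48.7% to 80.4% with 1 library left out, the lowest without the second and next 55.9% without the first P1 library. The promoter share, 13.8%, was 17.4% with equal lists, 16.3% without tandem repeats, 24.3% in neither class, 5.97% at 1 kb, 2.43% with starts of transcripts expressed at P1, 5.20% with RefSeq protein-coding starts, and 13.2% to 15.6% with 1 library left out.

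Nearest genes called higher from E18.5 to P1, 12.97%, were 10% with the upper 50% of the lists, 20.4% with a pseudocount of 0.1, 6.41% with no filter, 22.4% with TPM, 8.35% with median-of-ratios scaling and 21.7% with limma-voom, where all genes stood at 10.1%, 14.3%, 4.29%, 16.6%, 7.24% and 15.3%. Those called lower, 4.62%, were 8.20% in neither repeat class and 7.55% within 2.5 kb, beside 6.06%, and 2.23% with no filter, beside 2.45%. The share within 2.5 kb counted each of the genes at the mitochondrial copy. Those called higher from P1 to P7, 4.97%, were 3.33% with the upper 50%, 2.78% without tandem repeats, 0% in neither class and 2.83% within 2.5 kb, beside 3.45%, and 2.04% with no filter, beside 1.20%. Those called lower from P1 to P7, 9.06%, were 14.6% with equal lists, 12.6% with the upper 50%, 15.7% without tandem repeats, 19.7% in neither class and 14.2% within 2.5 kb, beside 5.46%, and 12.1% with a pseudocount of 0.1, 3.44% with no filter and 12.8% with limma-voom, beside 7.11%, 1.92% and 7.15%. With 1 ATAC-seq or RNA-seq library left out these 4 shares ran from 10.3% to 15.5%, 4.33% to 6.01%, 3.38% to 5.51% and 5.86% to 11.7%. The shares of all genes ran from 9.12% to 11.46%, 5.015% to 7.45%, 2.35% to 3.80% and 3.79% to 6.875%. The lowest values of the last 2 shares, 3.38% and 5.86%, came without the second P7 RNA-seq library. In that run all genes stood at 2.35% and 3.79%. The causes of these shifts were not tested. With the replicate block the shares were 12.97%, 4.62%, 4.97% and 8.70%, beside 10.17%, 6.07%, 3.455% and 5.465% of all genes. The numbers do not pair the libraries. Over the 58 tested genes of the naming rule, 1726 values stayed on their side of the threshold, 68 lost and 28 gained a call, and 0 reversed. The losses named above for single genes are not a full list, and some of those calls were also lost with no filter, TPM or limma-voom. The 2 libraries per group limit all of these tests.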
